A study of Mus musculus with 8 samples.

Results

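Forkhead transcription factors were examined in bulk RNA-Seq data of PyMt mammary tumors treated topically with calcipotriol or its solvent. The members were selected by gene symbol: every protein-coding gene named Fox, then a letter from a to s and a number, which gave 44 of the 55414 genes in the deposited table. The family was proposed because Foxd1 and Foxr2 were among the genes with the highest fold changes in this same contrast, so the values of those genes, and of Foxq1, which like them could enter the test only through the calcipotriol group, are given as a description without a p-value. All 8 tumors grew in WT female C57BL/6 mice from the PyMt line, implanted in the mammary fat pad. The line stems from MMTV-PyMt transgenic mice, in which a mammary tumor virus promoter drives the polyoma middle T antigen. Of these mice, 4 received calcipotriol, a vitamin D analog, in EtOH (replicates 1, 5, 6 and 7) and 4 received EtOH (replicates 1 to 4), and tumors were collected 24 hours after the final dose. All tumors thus came from 1 cell line with the same transgene. The labels give the cell type as epithelial, but RNA of whole tumors was sequenced, and genes of endothelium, fibroblasts and macrophages were detected in every tumor.

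Forkhead factors share a winged helix domain that binds DNA, and they differ mainly in where they are made and how they are controlled. FOXA factors open chromatin for hormone receptors in luminal mammary epithelium, and FOXM1 drives genes of mitosis. FOXO factors are kept out of the nucleus by AKT, FOXC and FOXF factors act in mesenchyme and vessels, and FOXP3 defines regulatory T cells.

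Libraries held 19685419 to 25084713 counts. Of the 44 members, 27 had enough counts for the test, 5 had counts but too few (at most 79 in any tumor), and 12 had 0 counts in all 8 tumors. Calcipotriol replicate 1 stood apart from the others of its group in some macrophage genes, and not in the same direction for all. Cd163, a scavenger receptor of macrophages, had 1302 counts there, 2555 to 3242 counts in calcipotriol replicates 5, 6 and 7, and 428 to 996 counts with EtOH. Csf1r, the receptor of a macrophage growth factor, had 5532 counts there, 1506 to 1702 counts in calcipotriol replicates 5, 6 and 7, and 6983 to 8110 counts with EtOH, and without this tumor 241 genes were called higher and 401 lower, against 155 and 137 with it. Low counts were spread unevenly: 534 to 1846 genes had 1 to 3 counts in an EtOH-treated tumor and 1102 to 3197 in a calcipotriol-treated tumor. In bulk tumors, fewer cells of a type and less RNA per cell cannot be told apart.

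The promoters of Foxd1 and Foxr2 are shown because these genes had 0 counts in every EtOH-treated tumor and the highest counts among such members with calcipotriol. Each runs from 250 bases before to 50 bases after the gene start, as RefSeq gives it for GRCm38.p6, and 28 of the 44 members have an entry there. Capitals mark half-sites of the vitamin D receptor, the target of calcipotriol, spelled AGGTCA, with G also allowed as the first base and T as the third, on either strand. The Foxd1 promoter lies on the forward strand at chr13:98353995-98354294, and the Foxr2 promoter on the forward strand at chrX:153118538-153118837.
Foxd1: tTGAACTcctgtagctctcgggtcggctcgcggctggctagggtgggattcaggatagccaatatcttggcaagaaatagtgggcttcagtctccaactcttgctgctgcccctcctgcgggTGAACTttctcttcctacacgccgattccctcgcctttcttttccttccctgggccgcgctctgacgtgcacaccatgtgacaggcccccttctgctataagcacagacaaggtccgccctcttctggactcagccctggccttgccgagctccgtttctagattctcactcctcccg
Foxr2: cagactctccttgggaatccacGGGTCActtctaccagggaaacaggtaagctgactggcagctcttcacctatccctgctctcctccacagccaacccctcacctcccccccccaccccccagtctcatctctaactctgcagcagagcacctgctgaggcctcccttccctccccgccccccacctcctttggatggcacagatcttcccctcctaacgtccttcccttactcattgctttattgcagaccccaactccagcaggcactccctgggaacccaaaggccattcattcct
The Foxd1 window held 2 half-sites and 15 CpG dinucleotides, and the Foxr2 window 1 half-site and 3 CpG dinucleotides, against a median of 7 CpG over all 32851 promoters of the table. At least 1 half-site was present in 43.7% of all promoters. A pair of half-sites in the same orientation with NNN between them, the form that the receptor and RXR bind as a dimer, was in neither window and in 0.0396% of all promoters. A forkhead core (TGTTTAC, either strand, 3.65% of promoters), a TATA box (TATAAA, forward strand, 8.32%), a STAT element (TTCNNNGAA, 8.3%) and an AP-1 element (TGANTCA, 7.81%) were also in neither window. The motifs were chosen after the expression values were known, and a match or its absence describes these letters only.

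In calcipotriol-treated tumors 3 members were detected in every tumor that had no count in any EtOH-treated tumor: Foxd1, Foxr2 and Foxq1. Foxd1, a factor of stromal progenitors in the kidney and of the retina, had 0, 0, 0 and 0 counts in EtOH replicates 1 to 4. It had 312, 327, 63 and 65 counts in calcipotriol replicates 1, 5, 6 and 7, or 12.4, 14.9, 3.03 and 2.76 CPM (counts relative to a library size adjusted by edgeR's TMM). Replicates 1 and 5 were thus well above 6 and 7, and the highest was 5.42-fold the lowest. Against a floor of 3 counts in each EtOH library, the calcipotriol mean was at least 60.7-fold higher, and at least 44.4-fold higher without replicate 5.

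Foxr2, a factor with little expression outside the germ line in normal tissues and an oncogene in several embryonal tumors, also had 0 counts in all 4 EtOH-treated tumors. With calcipotriol it had 70, 510, 50 and 56 counts in replicates 1, 5, 6 and 7, or 2.78, 23.3, 2.40 and 2.37 CPM. Replicate 5 was 8.38-fold above the next highest tumor, and the other 3 lay close together. The group mean was at least 56.5-fold above the floor, and at least 18.5-fold above it without replicate 5. The order of the calcipotriol-treated tumors was the same for Foxd1 and Foxr2, but the spacing was not: replicate 1 was close to replicate 5 for Foxd1, and for Foxr2 it lay with replicates 6 and 7.

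Foxq1, an epithelial factor on chromosome 13 (31556134 to 31560976, forward strand, GRCm38), was detected at a lower level. It had 0 counts in every EtOH-treated tumor and 33, 17, 17 and 44 counts in calcipotriol replicates 1, 5, 6 and 7. The calcipotriol values were 1.31, 0.777, 0.817 and 1.87 CPM, with no overlap between the groups. This was at least 8.74-fold above the floor. The gene A530084C06Rik overlaps Foxq1 on the opposite strand and had 0, 0, 6 and 0 counts with EtOH and 0 with calcipotriol. Whether the library kept strand is not stated in the sources used here, so reads of overlapping genes on opposite strands cannot be told apart.

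Foxl2, a factor of ovarian granulosa cells, had 0 counts in all EtOH-treated tumors and 79, 3, 0 and 0 counts in calcipotriol replicates 1, 5, 6 and 7. Its signal was thus from 1 tumor, and its antisense gene Foxl2os had 18, 1, 0 and 0 counts in the same order. Foxa3 and Foxi1 were also at 0 with EtOH, and reached at most 3 and 9 counts with calcipotriol. In total 6 members had 0 counts in every EtOH-treated tumor and at least 1 with calcipotriol, and 0 members showed the reverse. The share of all genes with this pattern was not taken, so nothing is read from these counts. A related rule, given below, also held for more protein-coding genes in this direction than in reverse (0.369% against 0.0912%). The uneven spread of low counts given above has the same direction, and its part in these members was not tested.

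**Figure D1:**
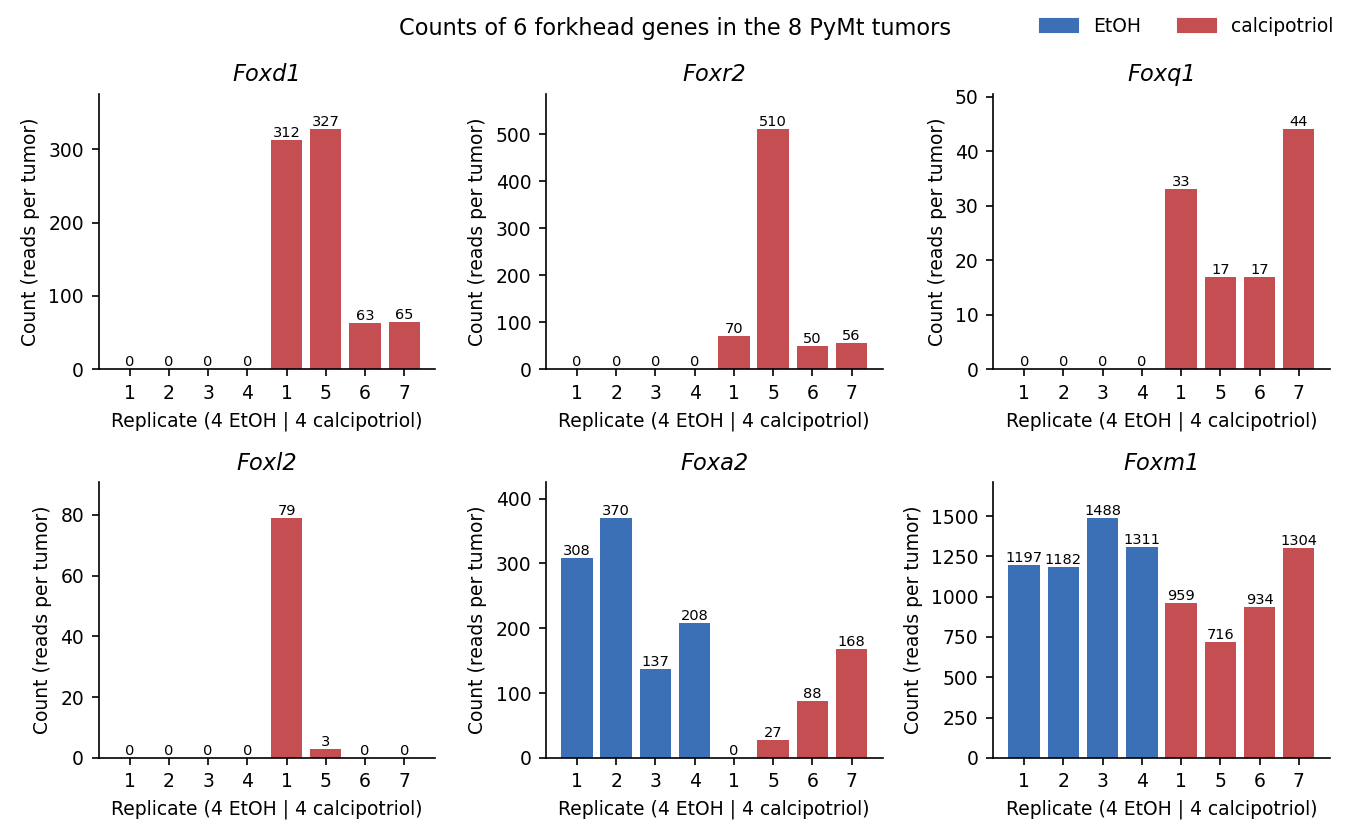
Counts per tumor (y axis, reads) of 6 forkhead genes, with EtOH replicates 1 to 4 in blue and calcipotriol replicates 1, 5, 6 and 7 in red; each bar is 1 tumor. Foxd1, Foxr2 and Foxq1 have 0 counts in every EtOH-treated tumor and at least 17 in every calcipotriol-treated tumor, Foxl2 has 79 of its counts in 1 tumor, and Foxa2 ranges from 0 to 168 with calcipotriol.

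The fit over all genes called 3 members higher with calcipotriol, Foxd1, Foxr2 and Foxq1, and 0 lower (adjusted p under 0.05 and absolute log2 fold change of at least 1, edgeR's quasi-likelihood test). Of all 14458 genes tested, 1.07% were called higher and 0.948% lower. The family was chosen on this contrast and all 3 had counts in the calcipotriol group alone, so nothing is read from that count. Without EtOH 1 or EtOH 2 the count of higher members was 1, Foxd1, with limma-voom it was 1, Foxq1, and without calcipotriol 1 it was 3. At an unadjusted p under 0.05 there were 4 of the 27 members, Foxd1, Foxr2 and Foxq1 among them, and 18.4% of all genes tested. DESeq2 and limma-voom called 0 members lower as well. No overlap between the groups was seen for 3 higher members, again the same genes, and for 1 lower member, Foxm1, against 6.32% and 6.16% of all genes tested. Among protein-coding genes, 0.369% had at most 3 counts in every EtOH-treated tumor and a mean of at least 10 with calcipotriol, as Foxd1, Foxr2, Foxq1 and Foxl2 did, and 0.0912% showed the reverse, as 0 members did.

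The other 24 tested members did not pass. Their log2 fold changes (calcipotriol over EtOH) ran from -1.92 to 0.89 with adjusted p of 0.167 to 0.982, and 21 of them were within 0.5 of 0. The median over all 27 tested members was 0.05, with the silent members at their bound too, and over all genes tested it was 0.02.

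**Figure D2:**
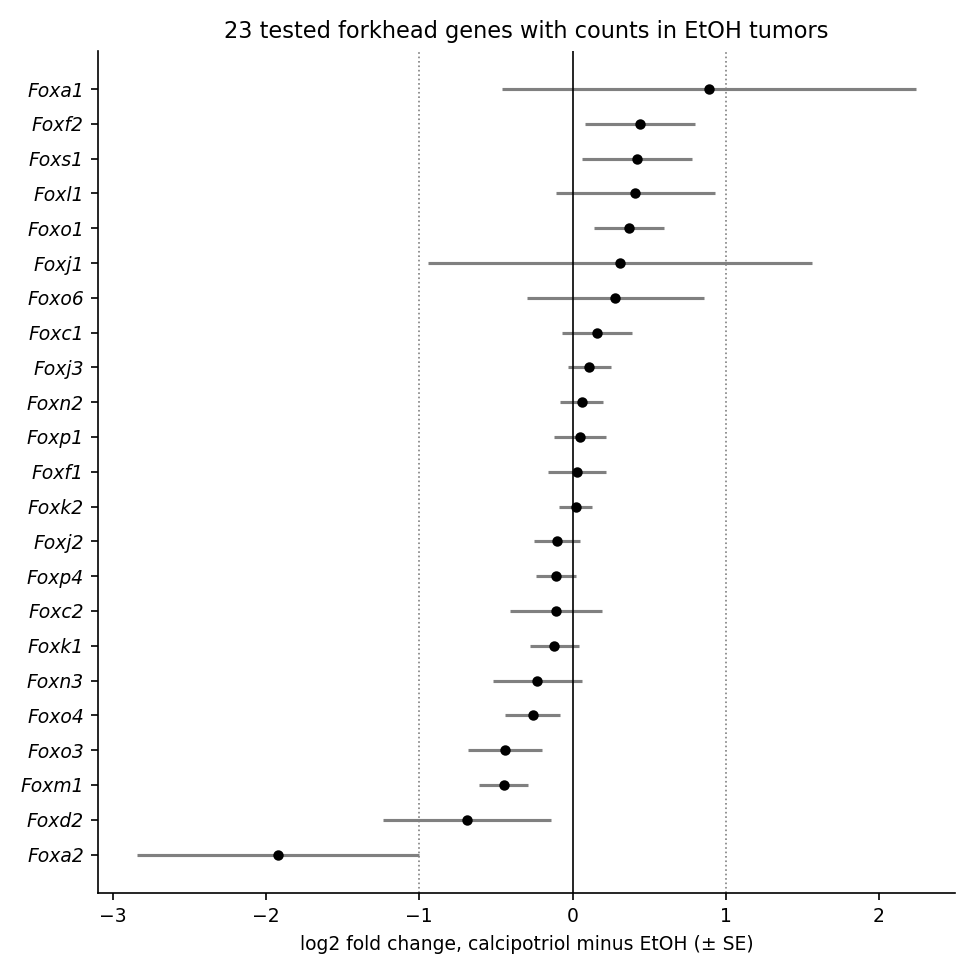
Log2 fold change of calcipotriol over EtOH (x axis) with its standard error, for 23 of the 24 tested members with counts in EtOH-treated tumors; dotted lines mark the fold change minimum of 1 in each direction. Foxa2 at -1.92 and Foxa1 at 0.89 lie at the ends with wide errors, and 20 of the 23 lie within 0.5 of 0.

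Among the FOXA factors, Foxa1, the partner of estrogen receptor in luminal mammary cells, was near the limit of detection. It had 3, 0, 4 and 39 counts with EtOH and 17, 0, 19 and 52 with calcipotriol, and the groups overlapped (log2 fold change 0.89, SE 1.35, adjusted p = 0.778). Foxa2, a factor of endoderm and its organs, was the more abundant FOXA factor with EtOH, and it is described here after its values were seen. It had 308, 370, 137 and 208 counts with EtOH and 0, 27, 88 and 168 with calcipotriol, so that replicate 7 of calcipotriol lay within the EtOH range and replicate 1 was at 0. Its log2 fold change of -1.92 (SE 0.92) had an adjusted p of 0.302, and with each tumor left out it ranged from -2.71 to -1.50.

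Genes that FOXA1 works with or controls in luminal cells moved unequally. Of 20 on the list, 14 were tested, 2 were called higher and 0 lower, with a median log2 fold change of 0.20. Cldn3, a tight junction protein, rose from 0.431 ± 0.277 to 6.62 ± 1.76 CPM (SD, n = 4; log2 fold change 3.93, SE 0.52, adjusted p = 0.00654 from edgeR). Krt18, a luminal keratin, went the other way, from 558 ± 90.4 to 293 ± 40 CPM (SD, n = 4; log2 fold change -0.93, SE 0.16, adjusted p = 0.0162 from edgeR), and was short of the fold change minimum. Its partner keratin Krt8 was at 593 ± 67.4 and 369 ± 108 CPM (SD, n = 4; adjusted p = 0.0966 from edgeR). With limma-voom, or without EtOH 1, EtOH 3, EtOH 4 or calcipotriol 5, the count called higher was 1, Cldn3. Krt18 passed both thresholds without EtOH 3 (adjusted p = 0.025) or calcipotriol 1 (adjusted p = 0.00585), and its adjusted p was over 0.05 without calcipotriol 6 (0.0606) or 7 (0.056). Markers of luminal epithelium summed to 1026 to 1351 CPM with EtOH and 600 to 901 CPM with calcipotriol. Krt8, Krt18, Krt19, Esr1 and Elf5 belong to both lists, and only Epcam and Cdh1 are luminal markers outside the FOXA1 list. Krt8 and Krt18 make up most of that sum, so it is no separate measure of luminal content. Of the 6 luminal markers tested, 3 had a positive log2 fold change (Krt19, Epcam and Cdh1) and 3 a negative one. Markers of basal epithelium summed to 21.7 to 55.1 CPM with EtOH and 39.2 to 82.3 CPM with calcipotriol. Most of that sum with EtOH was Acta2 (mean 37 CPM, log2 fold change -0.54), which is also a mural marker. Krt14 and Trp63 were called higher (log2 fold changes 5.17 and 2.57). Krt17 and Krt5 were not called (3.13 and -0.27). The part of luminal and basal content in these values was not tested.

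Foxm1, the mitotic factor, was at 58.2, 57.5, 60.3 and 57.8 CPM in EtOH replicates 1 to 4 and at 38.1, 32.7, 44.9 and 55.3 CPM in calcipotriol replicates 1, 5, 6 and 7. The EtOH-treated tumors were nearly equal, all calcipotriol-treated tumors were below them, and replicate 7 came close to them. The means were 58.5 and 42.7 CPM, with coefficients of variation of 2.12% and 22.8%. The log2 fold change of -0.45 (SE 0.16) did not pass (adjusted p = 0.167 from edgeR), and it was -0.60 to -0.34 with each tumor left out. All 24 listed FOXM1 targets were tested, and none passed both thresholds (unadjusted, 8 had a p under 0.05, beside 18.4% of all genes tested, and DESeq2 called 0). Every log2 fold change on the list was negative, with a median of -0.28, while 47.9% of all genes tested were negative; genes of the cell cycle vary together and are not independent. Cenpb, a centromere protein, was at 351 ± 30.0 and 277 ± 12.1 CPM (SD, n = 4) in the EtOH and calcipotriol groups, with no overlap but an adjusted p of 0.152 from edgeR. The proliferation markers Top2a and Mki67 had log2 fold changes of -0.28 (SE 0.17) and -0.34 (SE 0.20), and their groups overlapped. Ube2c, the ubiquitin conjugating enzyme of the anaphase complex, was named after its values were seen: at 124 ± 27.0 and 69.1 ± 7.59 CPM (SD, n = 4), it had an adjusted p of 0.0279 from edgeR but a log2 fold change of -0.84 (SE 0.17), short of the minimum, and its adjusted p was over 0.05 in 6 of the 8 fits that left out 1 tumor (0.03 to 0.0992 over the 8). The other targets without overlap were Ccnb2 and Cdc20, also named after their values were seen (adjusted p = 0.0822 and 0.137 from edgeR). The summed CPM of the list was 1726 to 2303 with EtOH and 1383 to 1836 with calcipotriol, lowest in calcipotriol replicate 1.

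The FOXO factors, which restrain growth and respond to insulin and stress, were well expressed. Foxo1 was at 71.9, 80.1, 48.6 and 44.3 CPM with EtOH and at 71.9, 58.1, 87.8 and 99.7 CPM with calcipotriol. Foxo3 was at 104, 99.3, 55.3 and 49.2 CPM with EtOH and at 62.1, 61.1, 47.2 and 56.8 CPM with calcipotriol. In both genes EtOH replicates 1 and 2 were above EtOH 3 and 4, and the groups overlapped. The log2 fold change was 0.37 for Foxo1 (SE 0.23, adjusted p = 0.412) and -0.44 for Foxo3 (SE 0.24, adjusted p = 0.366), of opposite sign. Foxo4 and Foxo6 had log2 fold changes of -0.26 (SE 0.18) and 0.28 (SE 0.58).

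Of 32 FOXO target genes, 27 were tested and 0 passed both thresholds in either direction, with a median log2 fold change of -0.08 (unadjusted, 3 had a p under 0.05, beside 18.4% of all genes tested; DESeq2 called 0). The most abundant, Gadd45a, Map1lc3b, Sesn3 and Bnip3, had log2 fold changes of 0.45, -0.09, -0.40 and 0.32. Cat and Sod2 were named after their values were seen, and neither passed both thresholds. Cat, catalase, was at 96.6 ± 16.1 and 49.1 ± 9.01 CPM (SD, n = 4; log2 fold change -0.98, SE 0.17, adjusted p = 0.0172 from edgeR), and Sod2, mitochondrial superoxide dismutase, at 46 ± 8.69 and 72 ± 17.2 CPM (SD, n = 4; log2 fold change 0.65, SE 0.19, adjusted p = 0.105 from edgeR). With each tumor left out, the adjusted p of Cat was 0.00488 to 0.0649: it passed both thresholds without EtOH 4 or calcipotriol 1, and its adjusted p was over 0.05 without EtOH 2, calcipotriol 5, 6 or 7. Of the 20 kinases and other regulators of FOXO, 0 passed both thresholds (unadjusted, 3 had a p under 0.05, beside 18.4% of all genes tested; DESeq2 called 0), and the median was 0.07. That list holds Pdk1, which in mouse names a kinase of pyruvate dehydrogenase. Sgk1, a kinase that phosphorylates FOXO3, was at 136 ± 22.1 and 262 ± 62.0 CPM (SD, n = 4) with no overlap (log2 fold change 0.95, SE 0.18, adjusted p = 0.0262 from edgeR), and with each tumor left out it passed both thresholds without EtOH 1 (adjusted p = 0.0483) or calcipotriol 1 (adjusted p = 0.0115) and had an adjusted p of 0.0518 to 0.0711 in the other 6 fits. Akt1 was at 407 ± 32.6 and 295 ± 30.4 CPM (SD, n = 4), also without overlap (log2 fold change -0.46, SE 0.13, adjusted p = 0.0821 from edgeR).

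FOXC and FOXF factors pattern mesenchyme and vessels, and several lie close to a relative in the genome. Foxf1, Foxc2 and Foxl1 lie within 46.3 kb on chromosome 8, and Foxq1, Foxf2 and Foxc1 within 256 kb on chromosome 13. Foxc2, required for lymphatic valves, was at 38.3, 31.7, 59.8 and 59.2 CPM with EtOH and at 71.2, 28.5, 39.3 and 36.7 CPM with calcipotriol. Foxc1, its close relative, was at 113, 96.5, 65.9 and 50.5 CPM with EtOH and at 77.9, 81.2, 95.2 and 110 CPM with calcipotriol. The EtOH-treated tumors ranked in opposite ways for both genes, since replicates 1 and 2 were the higher for Foxc1 and the lower for Foxc2. The log2 fold changes were -0.11 for Foxc2 (SE 0.30, adjusted p = 0.889) and 0.16 for Foxc1 (SE 0.23, adjusted p = 0.769), and each changed sign when 1 of some tumors was left out. Foxf1, a factor of visceral mesenchyme and lung vessels, was at 23.8, 21.4, 19.4 and 14.5 CPM with EtOH and at 23.3, 16.5, 19.3 and 21.5 CPM with calcipotriol (log2 fold change 0.03, SE 0.19, adjusted p = 0.953). Foxq1 had 0 counts with EtOH while its neighbours Foxf2, 64.8 kb away, and Foxc1 were detected in all 8 tumors. Foxf2 had 64, 55, 98 and 77 counts with EtOH and 180, 96, 58 and 82 with calcipotriol (log2 fold change 0.44, adjusted p = 0.571).

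Calcipotriol replicate 1 was the highest of its group for Foxc2, Foxd2, Foxf1, Foxf2, Foxl1 and Foxs1, a set picked after its values were seen. It was also the highest for 31% of all genes tested. For other factors of mesenchyme it was not: Foxc1 was lowest there, at 77.9 CPM against 81.2 to 110 CPM, and Foxd1 was higher in replicate 5. Mural cell markers summed to 528 CPM and endothelial markers to 120 CPM in this tumor, the highest of the calcipotriol group for both (ranges 329 to 528 and 60.3 to 120 CPM). Most of the mural sum was Pdgfrb (446 CPM), while the mural marker Rgs5 had 277 counts there and 379 in replicate 7. Most of the endothelial sum was Cdh5 (56.6 CPM) and Pecam1 (27.1 CPM), both highest in replicate 1. No other endothelial marker was highest there, and Emcn, Robo4 and Esam were lowest there, at 6, 3.06 and 7.35 CPM. Fibroblast markers summed to 3693 CPM in a range of 3585 to 6380 CPM. The part of these cell types was not tested. Without this tumor the log2 fold change of Foxc2 was -0.44 (adjusted p = 0.336 from edgeR) and that of Foxf1 was -0.05.

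Some vascular genes tied to FOXC2 and FOXF1 were called lower with calcipotriol. Of 24 on the list, 22 were tested, 6 were called lower and 0 higher, 19 had a negative and 3 a positive log2 fold change, and the median log2 fold change was -0.85. Kdr, which binds VEGF on endothelial cells, lay at 12.7 to 15.7 CPM with EtOH and at 3.65 to 4.96 CPM with calcipotriol (adjusted p = 0.00384 from edgeR). Dll4, the Notch ligand of tip cells, fell from 11.4 ± 3.63 to 3.99 ± 1.38 CPM (SD, n = 4; log2 fold change -1.51, SE 0.34, adjusted p = 0.0436 from edgeR). Cxcr4, a chemokine receptor, fell by 1.73 on the log2 scale, Tie1, an endothelial receptor, by 1.65, and Pecam1, an endothelial junction protein, by 1.36 (adjusted p = 0.0439, 0.0424 and 0.0331 from edgeR). S1pr1, a receptor of sphingosine 1-phosphate, fell from 20.3 ± 5.93 to 8.26 ± 0.928 CPM (SD, n = 4; adjusted p = 0.0186 from edgeR). Endothelial markers as a whole moved with these genes: 5 of 10 were called lower, none was at 0 in either group, and their sum was 161 to 373 CPM with EtOH and 60.3 to 120 CPM with calcipotriol. Pecam1, Kdr, Cdh5 and Tek belong to both lists. Cdh5 and Pecam1 are the largest terms of that sum (means of 81.4 and 60.6 CPM with EtOH), so it is no separate measure of endothelial content. Of the markers outside the vascular list, Robo4, Clec14a and Esam were called lower, and Emcn, Cldn5 and Erg were not. The part of endothelial content in the list was not tested. The count of 6 became 8 without calcipotriol 1, 2 with limma-voom or without calcipotriol 7, and 1 without EtOH 1, EtOH 2, calcipotriol 5 or calcipotriol 6.

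Genes of stromal progenitors and mesenchyme, chosen for FOXD1, gave 0 called higher and 2 called lower among 23 tested of 25, with a median log2 fold change of -0.28, and without calcipotriol 1 these counts were 1 and 3. Rgs5, a pericyte gene, fell by 2.60 on the log2 scale (SE 0.44, adjusted p = 0.0162 from edgeR), and Mcam, a pericyte and endothelial adhesion protein, by 1.31 (SE 0.20, adjusted p = 0.0107 from edgeR). The most abundant matrix and mesenchymal genes Fn1, Vim and Col3a1 had log2 fold changes of 0.58, -0.62 and -0.52, none of which passed.

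**Figure D3:**
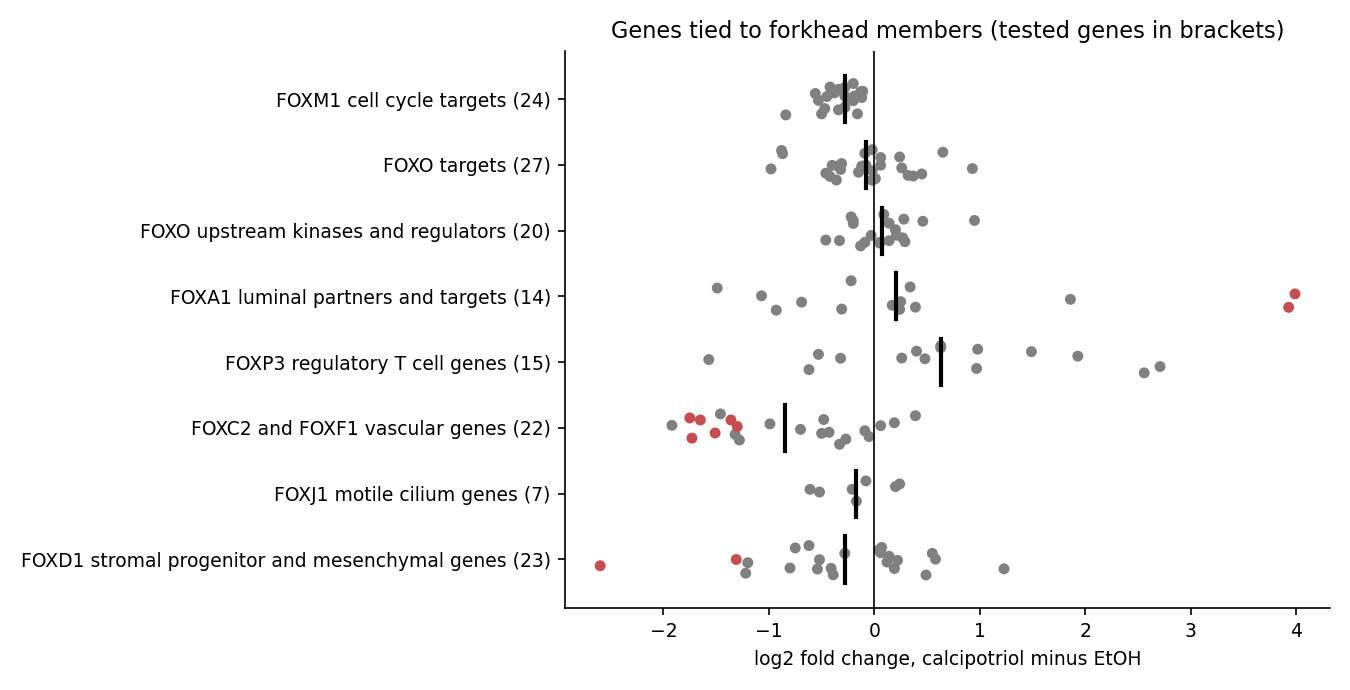
Log2 fold change of calcipotriol over EtOH (x axis) for the tested genes of 8 lists tied to forkhead members; each point is 1 gene, red points passed both thresholds, and the black bar is the list median. The medians run from -0.85 for the vascular list to 0.63 for the regulatory T cell list, and all 24 FOXM1 targets lie below 0.

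Foxp3, the factor of regulatory T cells, had too few counts to test: 13, 0, 0 and 12 with EtOH and 18, 9, 8 and 9 with calcipotriol. It was detected in 2 of 4 EtOH-treated and 4 of 4 calcipotriol-treated tumors, and the groups overlapped. Ccdc22 and Ppp1r3f overlap it on the opposite strand with up to 1077 and 173 counts, so some of its few reads may be theirs. Of 19 regulatory T cell genes, 15 were tested and 0 passed in either direction (unadjusted, 5 had a p under 0.05, beside 18.4% of all genes tested; without calcipotriol 1 edgeR called 1 higher and 1 lower, and DESeq2 called 2 higher and 1 lower), with a median log2 fold change of 0.63. The most abundant of them, Capg, Nrp1, Tnfrsf9 and Il10, are also made by macrophages or endothelium, and had log2 fold changes of -0.32, -0.53, 0.97 and 0.98. T cell markers summed to 2.07 to 3.55 CPM with EtOH and 3.22 to 15.9 CPM with calcipotriol, the highest in replicate 1; their part was not tested.

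Foxj1, the master factor of motile cilia, was near the limit of detection at 0.535, 0, 0 and 1.98 CPM with EtOH and 0.397, 1.10, 1.11 and 0.551 CPM with calcipotriol. Of 23 motile cilium genes, 21 were in the table, 7 had enough counts to be tested, and 0 passed (unadjusted, 0 had a p under 0.05; DESeq2 called 0). In each group 10 genes of that list had 0 counts in all 4 tumors.

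Ranked by CPM per kb of exon, which allows levels of different genes to be compared, Foxc2 (16.7), Foxc1 (14.8), Foxp4 (12.6), Foxk2 (12.3) and Foxp1 (9.94) were the highest over the 8 tumors. The ranges over tumors overlapped between neighbours in that order. With the longest transcript as the length in place of all exons, Foxp4 was at 15.5 and Foxp1 at 19 CPM per kb, so the order among these 5 depends on the length used. Foxp4 was at 71.1, 53.4, 66.8 and 65.8 CPM with EtOH and at 69.8, 57.3, 55.3 and 56.5 CPM with calcipotriol (log2 fold change -0.11, SE 0.13). Foxk2, a factor of metabolic genes, was at 56.7, 63.6, 69.3 and 67.6 CPM with EtOH and at 69.0, 60.3, 68.0 and 63.0 CPM with calcipotriol (0.02, SE 0.11). Foxp1, a repressor made in many tissues, was at 145, 179, 114 and 98.8 CPM with EtOH and at 143, 137, 143 and 134 CPM with calcipotriol (0.05, SE 0.17). The calcipotriol-treated tumors were within a narrow range for Foxp1, and the EtOH-treated tumors were spread around it. At the other end, Foxq1 was at 0.123 CPM per kb over the 8 tumors, Foxd1 at 0.817 and Foxr2 at 1.20.

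**Figure D4:**
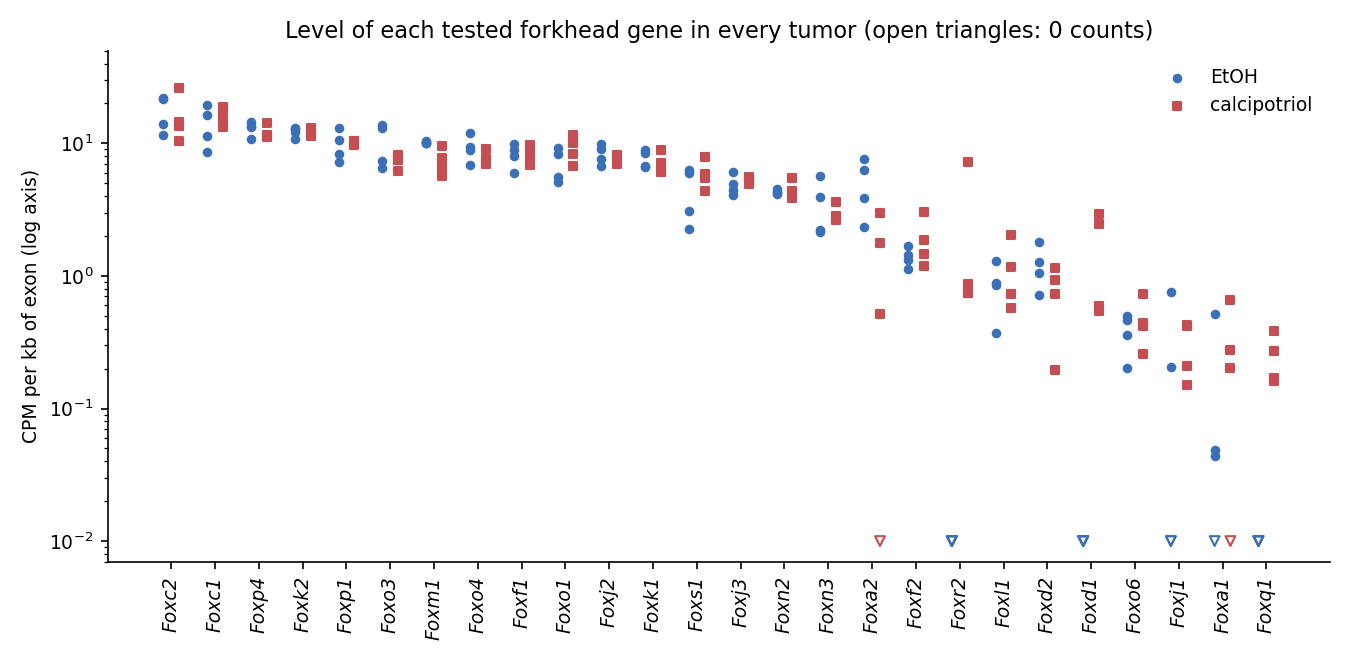
Level of 26 of the 27 tested members in CPM per kb of exon (y axis, log scale), ordered by the mean of all tumors; each point is 1 tumor, blue for EtOH and red for calcipotriol, and open triangles at the bottom mark tumors with 0 counts. Foxc2 (16.7) and Foxc1 (14.8) lead, and Foxd1, Foxr2 and Foxq1 have triangles in every EtOH-treated tumor.

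The EtOH-treated tumors differed among themselves, and the split given here was read after the values were seen. Of the 24 tested members with counts in that group, EtOH 1 and 2 were both above EtOH 3 and 4 in 12, and both below in 5, against 29% and 29.3% of all genes tested. Foxa2, Foxc1, Foxn3, Foxo1, Foxo3 and Foxp1 were among the 12, and Foxc2, Foxf2 and Foxs1 among the 5. Marker genes of other tissue split by the same pairs, in both directions. In EtOH replicates 1 to 4 the muscle gene Ckm had 0, 0, 223 and 243 counts, and the fibroblast gene Col1a1 had 6227, 5577, 28519 and 23578. Fibroblast markers did not split alike: Col1a2, Lum and Thy1 went as Col1a1 did, and Pdgfra, Col3a1 and Dcn the other way. Pdgfra had 3843, 4160, 2131 and 1446 counts. The 8 fibroblast markers summed to 4836 to 5392 CPM over the EtOH-treated tumors. The endothelial gene Pecam1 had 1490, 1919, 935 and 876 counts. The part of tissue content in the split of the members was not tested. Foxm1 and Foxn2 varied least, with coefficients of variation of 2.12% and 3.4% over the EtOH-treated tumors.

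Other tested members, among them Foxd2, Foxj2, Foxj3, Foxk1, Foxl1, Foxn2, Foxn3 and Foxs1, had log2 fold changes from -0.69 (Foxd2, SE 0.55) to 0.42 (Foxs1, SE 0.36), and none passed. Foxp2, a factor of brain and lung, had at most 8 counts in any tumor. The 12 members at 0 in all 8 tumors were Foxb1, Foxb2, Foxd3, Foxd4, Foxe1, Foxe3, Foxh1, Foxi2, Foxi3, Foxn1, Foxn4 and Foxr1, which are mostly factors of early embryo, nervous system, thymus, ear or lens. A count of 0 allows up to 3 counts, or 0.119 to 0.146 CPM in these libraries, and covers counting error only.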

How the data were processed

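Total RNA of 8 PyMt tumors was sequenced from NEBNext Ultra libraries, on a NovaSeq per the labels and a HiSeq per the paper. The authors deposited expected counts per Ensembl gene without scaling between tumors, and the submitters' processing notes name STAR 2.5.3, RSEM 1.3.1, DESeq2 1.24.0 and GRCm38. The table holds 0 columns of other samples. The study's methods state that each group had 4 biological replicates.

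The estimated counts that the authors deposited were rounded, the only change from the planned test on whole numbers, and identifiers were matched to GENCODE M21 (52133 of 55414 identifiers have a symbol). The split of estimated counts between overlapping or similar genes depends on the annotation the authors used. edgeR 4.0.16 in R 4.3.3 (filterByExpr, TMM, quasi-likelihood test) compared the groups over all 14458 genes that passed the filter. A call needed a Benjamini-Hochberg adjusted p under 0.05 and a log2 fold change of 1 or more in size. The biological coefficient of variation was 0.347. CPM used TMM library sizes, and levels were divided by the length of all exons of a gene. Bounds set each EtOH library at 3 counts and cover counting error only, since PCR reads are not independent molecules. On data simulated from these tumors with 200 genes changed 4-fold, edgeR recovered 181 with 4 false calls among 14270 genes. The simulation gave every gene the same dispersion (0.12), a measure of spread between tumors, and set no tumor apart. Its recovery and false calls therefore do not carry over to the real tumors.

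The members and lists were chosen with earlier results of these data known. Values in every tumor are given for members past both thresholds, without overlap, or silent in 1 group, for the 5 highest per length, and for a fixed set of others (Foxa1, Foxc2, Foxf1, Foxm1, Foxo1, Foxo3 and Foxp3). List genes are named where past both thresholds and otherwise by mean CPM, up to 4 a list, and exceptions are said to be such. A few genes that these rules would name are not reported here. The alternatives were DESeq2 size factors, no filter, the DESeq2 test (1.42.0), at least 10 counts in each tumor, limma-voom (3.58.1), no fold change minimum, each tumor left out, and the longest transcript as length.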

Additional observations from a re-analysis of the deposited data

Results flagged for a closer look

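In each group of 4 tumors, 26 of the 27 tested members were examined for a tumor set apart by Dixon's criterion at the 5% level. The criterion asks whether the gap to the nearest neighbour is too large a share of the group's range, here on log values with 0.1 CPM added. Such a tumor was seen in 3 of 52 groups, where chance gives at most about 2.6. The EtOH groups of Foxd1, Foxr2 and Foxq1, at 0 in every tumor, could not be flagged, which lowers the number by chance. Foxr2 was at 23.3 CPM (510 counts) in calcipotriol replicate 5, against 2.37 to 2.78 CPM (50 to 70 counts) in the others of its group. Foxp4 was at 69.8 CPM in calcipotriol replicate 1, against 55.3 to 57.3 CPM, and this value lay within the EtOH range. Foxj2, a widely expressed factor, was at 37.4 CPM in calcipotriol replicate 5, against 42.7 to 43.5 CPM in the others.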

How the results depend on the processing

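No paired analysis was possible because the groups share only replicate number 1. The count of forkhead members called higher, 3, was 0 with a minimum of 10 counts in every tumor, which removes members with 0 counts by construction, 1 with limma-voom, and 1 to 3 with each tumor left out; the DESeq2 test called Foxd1 and Foxq1. Over all genes, 247 were called higher and 211 lower with no filter, 433 and 341 with the DESeq2 test, and 68 to 241 and 41 to 401 with each tumor left out. Without a fold change minimum, 1 gene each of the FOXM1 targets (lower), FOXO targets (lower), FOXO regulators (higher) and FOXA1 list (lower) was called. The FOXA1 list gave 0 higher with the minimum of 10 counts and 1 with limma-voom, and 1 lower with no filter and with the DESeq2 test. The regulatory T cell list gave 1 higher and 1 lower with no filter, 2 and 1 with the DESeq2 test, and 1 lower with the minimum of 10 counts and with limma-voom. The vascular list gave 2 lower with limma-voom. With each tumor left out, 0 to 1 were called for FOXO targets in each direction, FOXO regulators (higher), the FOXA1 list (lower), the regulatory T cell list in each direction and the FOXD1 list (higher), 1 to 2 for the FOXA1 list (higher) and 1 to 8 for the vascular list (lower). Small log2 fold changes changed sign with a tumor left out: Foxc1 (-0.01 to 0.36), Foxc2 (-0.44 to 0.05), Foxf1 (-0.09 to 0.13), Foxk2 (-0.04 to 0.06) and Foxp1 (-0.07 to 0.22). The longest transcript moved Foxp4 to 15.5 and Foxp1 to 19 CPM per kb. Of 152 values of 11 single members with counts in EtOH-treated tumors, 141 kept direction and call and 11 changed sign. Foxq1 lost its call without EtOH 1, EtOH 2, calcipotriol 5, 6 or 7, Foxr2 with limma-voom and without EtOH 1, 2 or 3 (DESeq2 gave it no p), and Foxd1 with limma-voom. Foxd1 and Foxr2 drew attention to the family and all 3 had counts in the calcipotriol group alone, so a call kept or lost is a description and no support. The causes of these changes were not tested. The median shift over all genes between scalings was 0.00 on the log2 scale. Members with few counts, such as Foxa1, Foxj1 and Foxp3, are limited by depth.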

Other observations

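The pattern of Foxd1, Foxr2 and Foxq1, with 0 counts in every EtOH-treated tumor and at least 10 in each calcipotriol-treated tumor, was shared by 13 genes in the whole table, 12 of them protein-coding, and 0 genes showed the reverse. This search was made after the members' values were seen. Apart from the 3 forkhead members, they included Rnase2a, a ribonuclease, with 10, 118, 97 and 112 counts in calcipotriol replicates 1, 5, 6 and 7. Fut9, a fucosyltransferase, had 53, 102, 15 and 42 counts. Phlda2, an imprinted gene that limits placental growth, had 41, 12, 16 and 29 counts, and Tmprss6, a protease that lowers hepcidin, had 29, 36, 16 and 19 counts.

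Genes beside the silent members were also read after the fact. Rragb, a GTPase that tells mTORC1 of amino acids, starts 7120 bases after Foxr2 on the same strand. It had 0 counts in every EtOH-treated tumor and 16, 41, 4 and 15 counts in calcipotriol replicates 1, 5, 6 and 7, too few for the test, and replicate 5 was the highest for both genes. On the other side of Foxr2, Mageh1, 81.2 kb away, had 6 to 30 counts with EtOH and 6 to 32 with calcipotriol (log2 fold change -0.02, adjusted p = 0.991 from edgeR). Btf3, a general transcription factor 37.2 kb before Foxd1, had 9299 to 13592 counts with EtOH and 12466 to 17145 with calcipotriol (log2 fold change 0.21, adjusted p = 0.533 from edgeR).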
